A study of Homo sapiens with 6 samples.

Results

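The genes described here are the human proteasome genes with a name of the PSMA to PSMG series, followed through 2 lists of intronic clusters, which are places where RNA was protected from nuclease in purified complexes. A row of a list counted when its gene field held a single name starting with PSM, a letter from A to G and a digit. This took in 42 of the 11805 genes named alone in at least 1 list, with 408 F125A and 725 WT clusters after repeated rows were dropped. Of these 42 genes, 40 encode proteasome subunits, activators, an inhibitor or assembly chaperones. The pattern also took in PSME3IP1, which encodes a protein that binds the activator PSME3, and PSMC3IP, which encodes a meiotic recombination factor. These 2 are kept in the counts and named apart.

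Rbfox1 is a splicing regulator that works together with LASR, an assembly of further splicing proteins. It carried a FLAG tag, by which the complexes and their RNA were purified. The host was the human embryonic kidney line HEK293 Flp-In, as a single clone (number 7) that lacks Rbfox2, and both groups share this knockout. The F125A group had 2 libraries from cells with FLAG-Rbfox1(F125A), in which a phenylalanine of the RNA recognition motif is replaced. The WT group had 3 libraries from cells with FLAG-Rbfox1(WT), and 1 control library came from the same knockout cells with no transgene and was not analysed here. Each group is represented by 1 list for all of its libraries, so no value has a replicate error and no test of the conditions was possible. Intervals of shares and of single-gene ratios cover counting error only, and those of median ratios cover the spread between genes. The F125A list held 188027 different clusters and the WT list 366429, longer by a factor of 1.95. Read depth is unknown, and the lists hold places rather than expression levels, so the cell line was not checked against marker genes. The sources do not say if control background was taken out of the lists.

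The proteasome degrades proteins tagged with ubiquitin. Its 20S core is a barrel of outer alpha rings, which gate the entry, and inner beta rings, which hold the proteolytic sites. The 19S cap has a ring of ATPases that unfolds substrates, and non-ATPase subunits that bind and remove ubiquitin. Separate chaperones assemble core and cap, and other activators can take the place of the cap. Rbfox proteins bind RNA at the pentamer GCAUG, mostly in introns. F125 lies in the RNA-binding surface, and its replacement by alanine is known to weaken that binding.

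For 1 place the reference tables used here also held the sequence under the clusters, and it is shown because both lists had a cluster there. It lies near the start of PSMA4, an alpha ring gene on chromosome 15, plus strand, in a RefSeq window (GRCh38.p14) around the annotated start at position 78540786, which is 381 nt downstream of the gene's outermost start. The F125A cluster was chr15:78540739-78540827 (89 nt) and the WT cluster chr15:78540759-78540803 (45 nt), so the WT cluster lay wholly inside the F125A cluster. The window is printed from 250 nt before the start to 30 nt after it (chr15:78540536-78540815), with the F125A cluster in capitals up to the end of the printed stretch, and the WT cluster follows on its own.
PSMA4 start window: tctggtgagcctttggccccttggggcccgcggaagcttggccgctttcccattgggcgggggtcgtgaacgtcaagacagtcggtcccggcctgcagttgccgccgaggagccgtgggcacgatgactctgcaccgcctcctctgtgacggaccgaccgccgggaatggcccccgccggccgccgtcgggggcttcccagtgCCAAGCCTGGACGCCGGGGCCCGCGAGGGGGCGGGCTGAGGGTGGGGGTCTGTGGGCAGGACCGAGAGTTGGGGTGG
PSMA4 WT cluster: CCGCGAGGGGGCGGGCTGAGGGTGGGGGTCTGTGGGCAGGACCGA
The stretch is rich in G and C: 74.2% of bases in the F125A cluster and 77.8% in the WT cluster. The motif GCATG, the DNA form of the Rbfox pentamer, was searched on both strands and was not among the letters of this window. Of all 35116 RefSeq start windows of the same length, 29.5% hold it on either strand, and 13 of the 47 windows of 37 PSM genes do. Apart from the PSMA4 clusters, the only PSM cluster to reach into such a window was a WT cluster of PSMD2, chr3:184300626-184300722, by 5 nt.

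PSM genes made up about the same small part of both lists. Their 408 clusters were 0.217% of the F125A list (exact binomial 95% interval 0.196 to 0.239%), and their 725 clusters 0.198% of the WT list (0.184 to 0.213%). Clusters were found in both lists for 41 of the 42 genes, and PSMD10, a chaperone of cap assembly, had 2 WT clusters and no F125A cluster. WT clusters were the more numerous in 37 genes, the numbers were equal in 3, and F125A clusters were the more numerous in 2, PSMD3 and PSMA4. With a WT list longer by 1.95 times, a gene at the ratio of the whole lists has more WT clusters. The median gene had 6 F125A and 11 WT clusters. The 6 genes with most WT clusters, PSMD14, PSME4, PSMD1, PSMD11, PSMB7 and PSMB1, held 43.1% of the F125A and 46.2% of the WT clusters of the family. Of the 48 proteasome genes in the gene table, 8 were named in no gene field of either list, fields with several names included: PSMA8, PSMB8, PSMB9, PSMB11, PSMD5, PSME1, PSME2 and PSMG3. The shares over all genes were not computed for this count or for the 41 genes in both lists, so nothing is read from either.

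**Figure D1:**
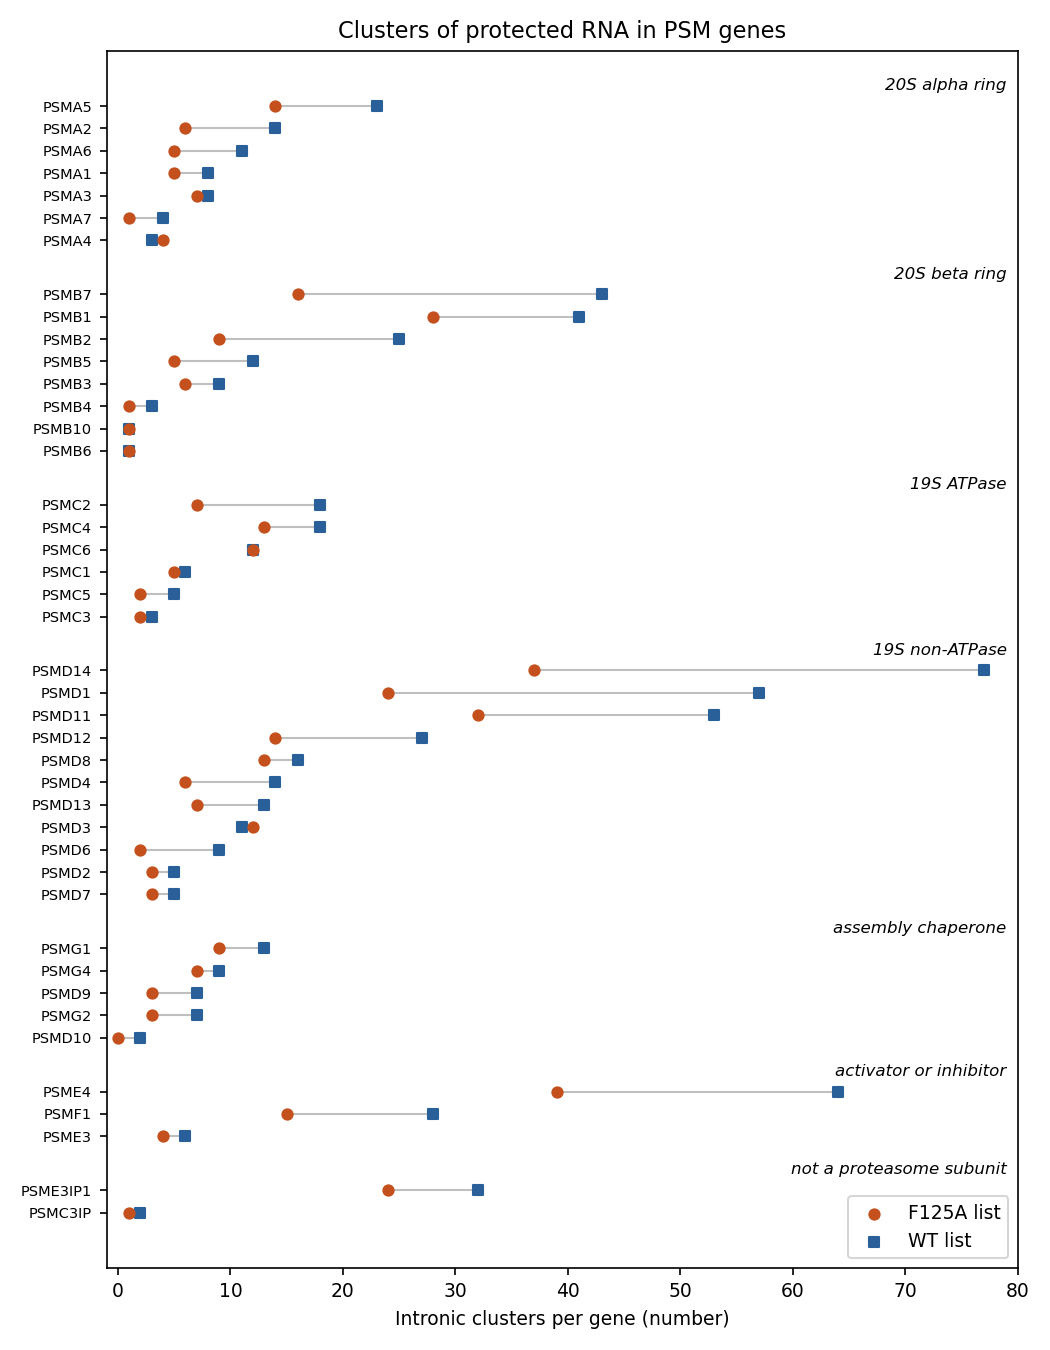
Number of intronic clusters (horizontal axis) in each of the 42 PSM genes (rows, grouped by role), with a circle for the F125A list and a square for the WT list. The WT square lies to the right in 37 genes, the symbols coincide in 3, and PSMD14 has the most WT clusters, 77, beside 37 F125A clusters.

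The lean of a gene is given as the log2 ratio of F125A to WT clusters, with 1 added to each count. The same ratio of the list totals, -0.96, was subtracted, so that 0 stands for the whole lists. A gene needed 20 or more clusters over both lists, which 5626 genes in all and 20 of the 42 PSM genes had. These 20 held 337 F125A and 599 WT clusters of the family. The other 22 PSM genes, with at most 17 clusters each, held 71 and 126 and have no ratio. Over all 5626 genes, 1.99% lay 2-fold or more toward F125A and 2.51% 2-fold or more toward WT. Among the 20 PSM genes, 1 lay 2-fold or more toward F125A and none toward WT, which is near that background. The exact binomial interval of the ratio, taken from the counts with nothing added, included 0 for all 20 PSM genes. Over all 5626 genes it lacked 0 in 10.2%, and in 7.02% of the 4413 genes with no more clusters than PSMD14. With 20 genes, a count of 0 is not far from that background, and nothing is read from it.

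Among the alpha ring genes, PSMA5 and PSMA2 had enough clusters for a ratio, and the others were too sparse. PSMA5 (chr1:109399042-109426448) had 14 F125A and 23 WT clusters, a log2 ratio of 0.28 (interval -0.83 to 1.27). PSMA2 (chr7:42916861-42932174) had 6 and 14 (-0.14, interval -1.93 to 1.21). PSMA6 had 5 F125A and 11 WT clusters, PSMA3 7 and 8, PSMA1 5 and 8, PSMA7 1 and 4, and PSMA4, whose start is shown above, 4 and 3. PSMA1 spans 139 kb in the annotation, yet all of its clusters lay in the last part of the gene: the first F125A cluster was centred 132 kb and the first WT cluster 128 kb from the annotated start. In PSMA6 the first clusters lay 15.9 kb (F125A) and 16.1 kb (WT) from the start. A second annotated transcript unit, PRORP-PSMA6, runs over all PSMA6 clusters on the same strand, so these reads cannot be assigned to one of them by place.

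The beta ring genes included the most densely covered gene of the family, PSMB1. PSMB1, a structural beta subunit (chr6:170535120-170553307), is 18.2 kb long and had 28 F125A and 41 WT clusters (0.43, interval -0.34 to 1.14). That is 15.4 F125A and 22.5 WT clusters per 10 kb, where the median gene of similar length had 2.14 and 3.60. Its densest stretch of 2 kb held 9 F125A and 13 WT clusters, beginning 0.61 kb and 0.62 kb from the start. PSMB7, the subunit with trypsin-like activity (chr9:124353465-124415442), had 16 F125A and 43 WT clusters (-0.41, interval -1.39 to 0.39). An annotated lncRNA on the strand of these clusters, LOC124902267, runs over the place of 2 of the F125A and 4 of the WT clusters. PSMB2 had 9 and 25 (-0.42, interval -1.80 to 0.64), the lowest ratio of the family. The catalytic subunit PSMB5, with chymotrypsin-like activity, had 5 F125A and 12 WT clusters, and PSMB6, with caspase-like activity, 1 and 1. PSMB3 had 6 and 9, PSMB4 1 and 3. PSMB10, a catalytic subunit of the immunoproteasome, had 1 cluster in each list, and they lay at different places, 219 and 1706 nt from the gene start.

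The 19S ATPase genes had the highest share of clusters near gene starts of the roles named here. PSMC4 (chr19:39971165-39981764), a gene of 10.6 kb, had 13 F125A and 18 WT clusters (0.52, interval -0.66 to 1.60), of which 4 F125A and 6 WT clusters lay within 1 kb of the start. PSMC6 (chr14:52707200-52728590) had 12 clusters in each list (0.96, interval -0.32 to 2.25), and 6 of either list overlapped one of the other. Over all single-gene clusters, 85.3% of F125A and 44.7% of WT clusters overlapped one of the other list. PSMC2 had 7 F125A and 18 WT clusters (-0.29, interval -1.90 to 0.93), and each of its 7 F125A clusters had a WT partner. The annotated gene SLC26A5 overlaps the place of 6 of these F125A and 16 of these WT clusters, and the lists name PSMC2 alone for them. PSMC1 had 5 F125A and 6 WT clusters, PSMC5 2 and 5, and PSMC3 2 and 3. Of all ATPase clusters, 10 of 41 F125A (24.4%, exact interval 12.4 to 40.3%) and 14 of 62 WT clusters (22.6%, 12.9 to 35.0%) lay within 1 kb of the start. Genes of the same lengths as the ATPase genes, which span 4.59 to 21.9 kb, had 13.2% and 11.9%, the first inside and the second just below the interval of the ATPase share. The short ribosomal protein genes had 27.7% and 26.4%. For all PSM genes together these shares were 7.60% (5.22 to 10.6%) and 5.79% (4.21 to 7.75%), and clusters in genes of the same lengths as the PSM genes had 7.67% and 5.75%.

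The non-ATPase genes of the cap held the most clusters of any role, 153 F125A and 287 WT. PSMD14, the deubiquitinase of the cap (chr2:161308425-161411717), led the WT list of the family with 77 WT clusters, beside 37 F125A clusters (-0.07, interval -0.70 to 0.49). PSMD1, a large scaffold subunit of the cap (chr2:231056867-231172827), had 24 and 57 (-0.25, interval -1.04 to 0.43). The annotated gene HTR2B overlaps the place of 5 of its F125A and 11 of its WT clusters, and the lists name PSMD1 alone for them. PSMD11 (chr17:32444510-32483319) had 32 and 53 (0.25, interval -0.45 to 0.89). These were the 3 non-ATPase genes with most clusters and the narrowest intervals of that role, and each interval included 0. PSMD3 (chr17:39980807-39997959) had the highest ratio of the family, with 12 F125A and 11 WT clusters (1.08, interval -0.22 to 2.41). It was the only PSM gene at 2-fold or more. Relative to genes of similar length it lay at 0.60, and with clusters closer than 50 nt merged it lay at 0.92 and PSMC6, at 1.04, was the gene past 2-fold. An annotated lncRNA, LOC124904000, runs on the opposite strand over the place of 10 of its F125A and 9 of its WT clusters, and the lists give the PSMD3 strand. PSMD8 had 13 and 16 (0.68, interval -0.51 to 1.81), PSMD12 14 and 27 (0.06, -1.03 to 1.00), PSMD13 7 and 13 (0.16), and the ubiquitin receptor PSMD4 6 and 14 (-0.14, -1.93 to 1.21). PSMD2 had 3 F125A and 5 WT clusters, as did PSMD7, the partner of PSMD14.

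PSMD6 was the one cap gene with several clusters in the WT list and none shared with F125A. PSMD6 (chr3:64010551-64024007) had 2 F125A and 9 WT clusters, and no cluster of either list overlapped one of the other. Over all single-gene clusters, 85.3% of F125A and 44.7% of WT clusters did. With 2 F125A clusters in the gene, few of the 9 WT clusters could have a partner. The F125A cluster chr3:64018551-64018638 lay 36 nt from the nearest WT cluster, chr3:64018432-64018514, and the other, chr3:64013579-64013687, 1166 nt from its nearest. The gene was singled out after its values were seen.

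**Figure D2:**
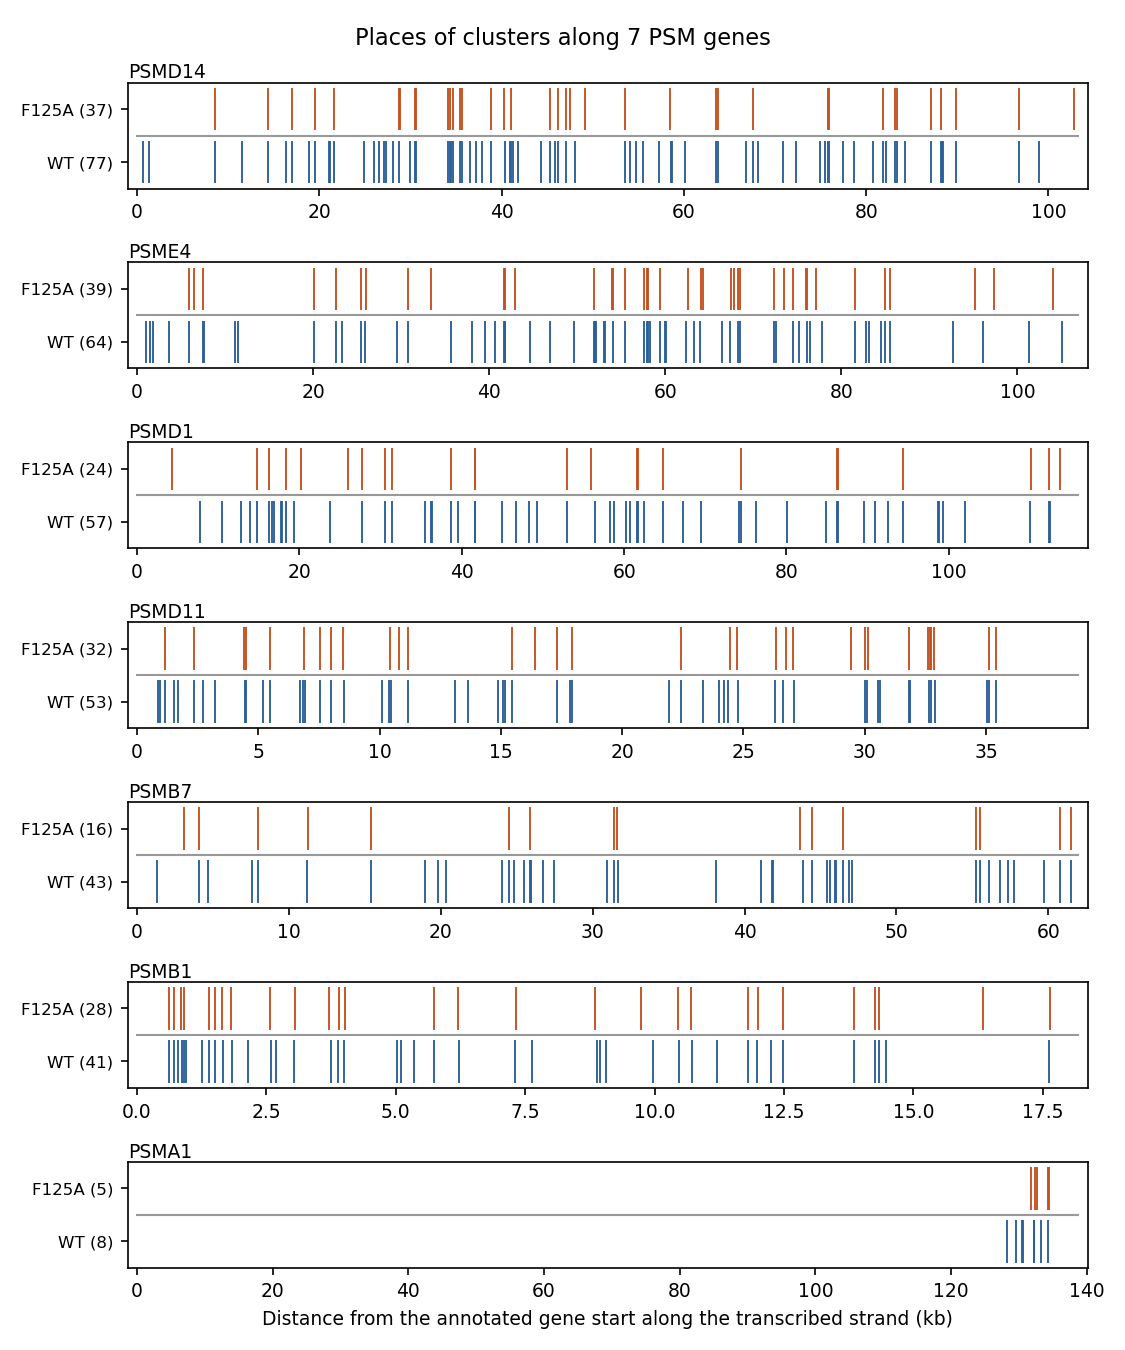
Place of each cluster centre along 7 PSM genes, in kb from the annotated start on the transcribed strand, with F125A clusters above and WT clusters below the line and a scale of its own for each gene. The 6 genes with most WT clusters are covered over most of their length in both lists, whereas the 5 F125A and 8 WT clusters of PSMA1 all lie beyond 128 kb.

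Among assembly chaperones, activators and the inhibitor, PSMG1, PSME4 and PSMF1 had enough clusters for a ratio, and all 3 intervals included 0. PSMG1, a chaperone of the alpha ring (chr21:39174769-39183514), had 9 F125A and 13 WT clusters in 8.75 kb (0.48, interval -0.97 to 1.77). PSMG4 had 7 and 9, PSMD9 3 and 7, and PSMG2 3 and 7. Like PSMA1, PSMG2 (67.0 kb) had no cluster in a long 5′ stretch, with the first cluster centred 46.8 kb from its start in the F125A list and likewise in the WT list. PSME4 (chr2:53864069-53970993) encodes PA200, an activator that docks on the core. It had the most F125A clusters of the family, 39, and 64 WT clusters (0.26, interval -0.37 to 0.84). PSMF1, an inhibitor of the core in vitro (chr20:1113263-1172246), had 15 and 28 (0.10, interval -0.95 to 1.02), and PSME3, a nuclear activator, 4 and 6. Of the names that are not subunits, PSME3IP1 had 24 F125A and 32 WT clusters (0.56, interval -0.28 to 1.36) and PSMC3IP 1 and 2. In PSME3IP1, 17 of the 24 F125A and 18 of the 32 WT clusters lay in the first 25% of the gene.

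The family's median ratio lay slightly above that of all genes, with an interval that included 0. It was 0.20 over the 20 PSM genes (interval of the median -0.14 to 0.48), beside 0.04 over all 5626 genes, and 13 PSM genes (65.0%) lay above 0, against 53.5% of all genes. The 12 tested PSM genes under 30 kb had a median of 0.36 (interval -0.14 to 0.68), and all 998 genes of that class 0.50. The 8 PSM genes of 30 kb or more had a median of 0.01 (interval -0.42 to 0.56), and all 4628 such genes -0.04. The intervals of both PSM classes overlap, and no difference between them was tested. The tested PSM genes were short, with a median of 24.6 kb against 71.2 kb for all tested genes. After the median of genes of similar length was subtracted, the median of the PSM genes was -0.16, with 5 genes above 0, 15 below and none at 2-fold or more (2.56% of all genes). The sign of the family's median depends on whether length is taken into account.

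**Figure D3:**
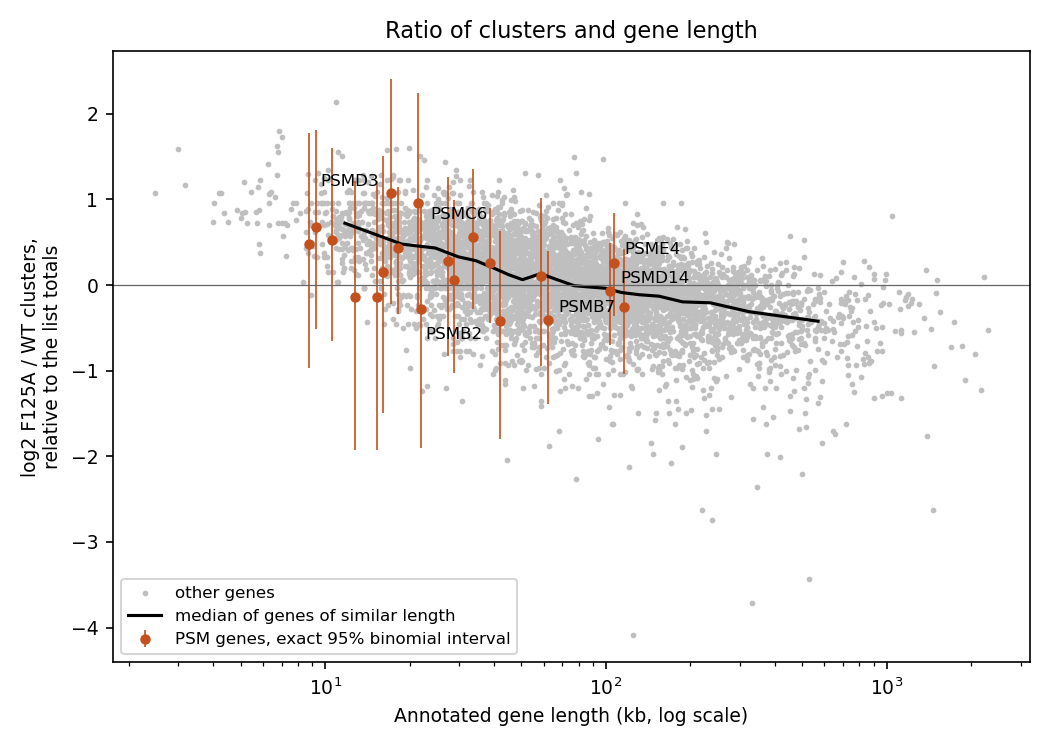
Log2 ratio of F125A to WT clusters relative to the list totals (vertical axis) against annotated gene length in kb on a log scale, for 20 PSM genes with exact binomial 95% intervals and for the other tested genes as grey points; the black line joins the medians of genes of similar length. All 20 intervals include 0, and 15 of the 20 PSM genes lie below the line.

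Other gene families of similar housekeeping function are given for their values only, since no test of the difference was run. The translation initiation factor genes were taken by names of EIF and a digit, so other genes with such names may be among them. The median ratio was 0.84 for 19 RPL and RPS ribosomal protein genes, 0.35 for 29 translation initiation factor genes and 0.33 for 23 aminoacyl-tRNA synthetase genes. Relative to genes of similar length these medians were 0.12, -0.05 and 0.19, beside -0.16 for the PSM genes. The share of F125A clusters that overlapped a WT cluster was 73.4%, 82.5% and 78.5% in the same order, beside 80.4% for the PSM genes.

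Most PSM genes were more densely covered than genes of their length. The median PSM gene had 3.75 F125A and 6.21 WT clusters per 10 kb of annotated gene, where the medians of genes of similar length were 2.24 and 3.78. The F125A density was above that of genes of similar length in 29 of the 42 genes, and the WT density in 31. The highest were PSMB1, given above, PSMD8 with 14.0 F125A and 17.3 WT clusters per 10 kb, PSMC4 with 12.3 and 17.0, PSMG1 with 10.3 and 14.9, and PSMD11 with 8.25 and 13.7. The lowest in both lists, where both had a cluster, were PSMA1 with 0.36 and 0.58 and PSMG2 with 0.45 and 1.04. Both have the long annotated 5′ stretch without clusters described above, which counts in their length. These are densities of called places and not levels of RNA, and expression of the host genes was not measured here.

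**Figure D4:**
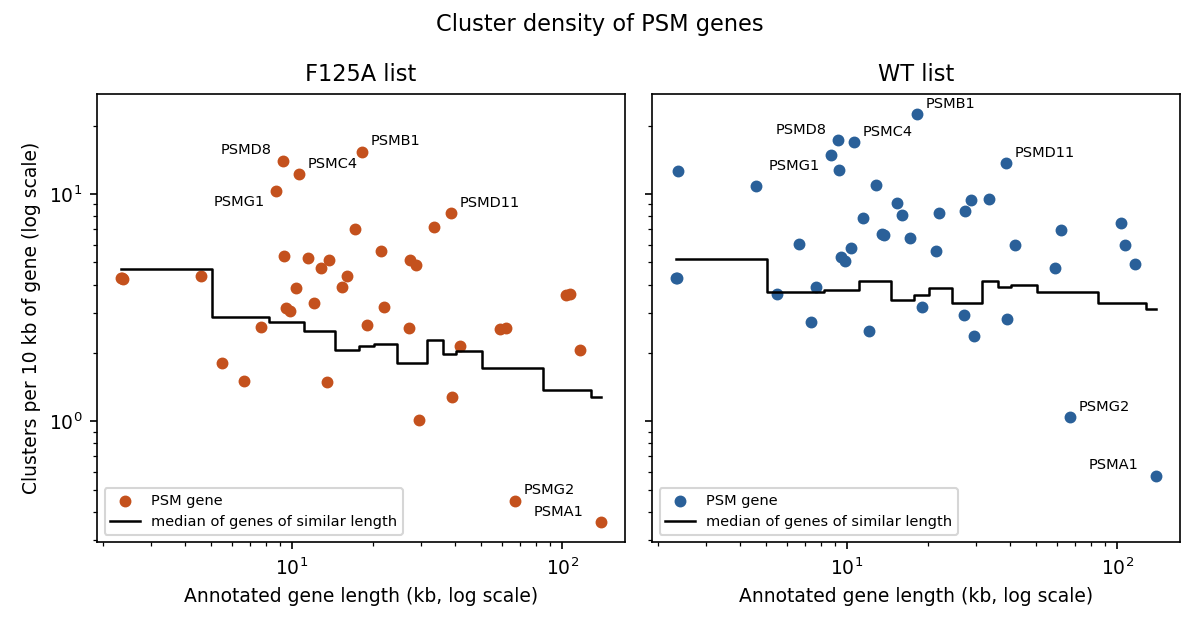
Clusters per 10 kb of annotated gene (log scale) against gene length in kb (log scale) for PSM genes with a cluster, F125A list on the left and WT list on the right; the black line is the median of genes of similar length. PSMB1, PSMD8, PSMC4 and PSMG1 are the highest in the F125A list, at 10.3 to 15.4, and PSMA1 and PSMG2 the lowest in both lists.

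Most F125A places in PSM genes had a WT counterpart. Of the 408 F125A clusters, 328 shared at least 1 nt with a WT cluster on the same strand, or 80.4% (exact interval 76.2 to 84.1%). The share was 85.3% over all single-gene F125A clusters and 82.0% in genes of the same lengths as the PSM genes. In the other direction, 337 of 725 WT clusters overlapped an F125A cluster, or 46.5% (42.8 to 50.2%), beside 44.7% over all single-gene WT clusters and 51.0% in genes of the same lengths. The F125A list is the shorter one, so many WT clusters can find none. By role, the F125A share ranged between 69.0% in alpha ring genes (29 of 42, interval 52.9 to 82.4%) and 89.6% in beta ring genes (60 of 67, 79.7 to 95.7%), and these intervals overlap. It was 81.7% in non-ATPase genes and 70.7% in activator and inhibitor genes (41 of 58), where PSME4 alone had 13 of the 17 F125A clusters without a partner.

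**Figure D5:**
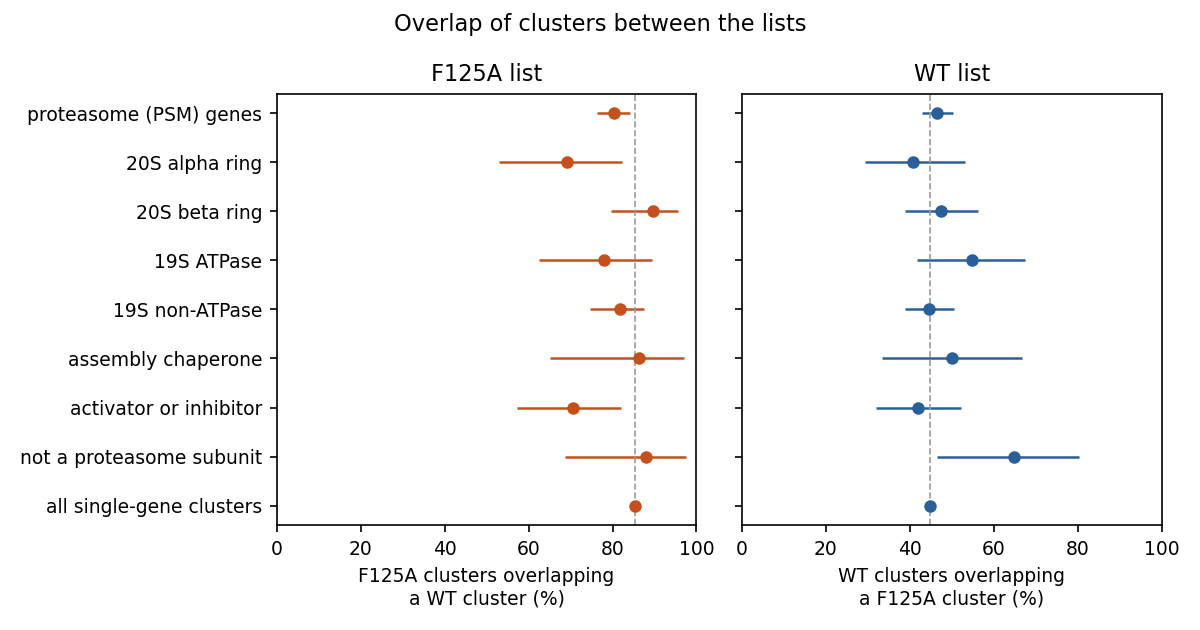
Share of clusters that overlap a cluster of the other list by at least 1 nt, in percent with exact binomial 95% intervals, by role of the PSM gene; F125A clusters on the left, WT clusters on the right, and a dashed line at the share over all single-gene clusters (85.3% and 44.7%). The PSM genes together lie at 80.4% and 46.5%.

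The 80 F125A clusters without a WT partner lay in 29 PSM genes, and 16 of them were less than 100 nt from a WT cluster and 19 over 1 kb away. Of the 388 WT clusters without a partner, 48 lay within 100 nt of an F125A cluster and 153 over 1 kb away. Such distances were not computed over all genes, so nothing is read from these counts. The 80 F125A clusters were longer, with a median of 83.5 nt, than the 328 with a partner (68.0 nt). The WT clusters ran the other way, with a median of 58.0 nt for the 388 without a partner and 66.0 nt for the 337 with one. All single-gene clusters had the same directions. Without and with a partner, their medians were 68 and 63 nt for F125A and 57 and 63 nt for WT. The longest cluster of the family was an F125A cluster without a partner, chr2:231170445-231170638 in PSMD1, with 194 nt. Its nearest WT cluster lay 1055 nt away. The longest WT cluster, chr21:39175842-39176019 in PSMG1, had 178 nt and overlapped an F125A cluster.

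F125A clusters of PSM genes were longer than WT clusters as lists, but not where both found the same place. The median length was 70.0 nt (quartiles 55.8 and 90.0 nt) for F125A and 62.0 nt (quartiles 48.0 and 78.0 nt) for WT clusters. Over all single-gene clusters the medians were 64.0 and 60.0 nt. In 323 pairs of clusters that were each other's best partner, the F125A cluster was the longer in 154, the WT cluster in 160, and 9 were equal. The median difference, F125A minus WT, was 0 nt, with quartiles of -11 and 12 nt, beside -1 nt over 155837 pairs of all genes. PSMB1 had 18 pairs with the longer F125A cluster and 8 with the longer WT cluster, PSMD14 20 and 13, PSME4 16 and 8, PSMD11 12 and 14, and PSMB7 3 and 10. In 6 pairs both ends were the same to the nt.

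Along the genes, the first 25% of gene length held a smaller share of PSM clusters than of all clusters. It held 27.9% of F125A (exact interval 23.6 to 32.6%) and 26.9% of WT clusters (23.7 to 30.3%). The shares were 34.1% and 32.4% over all single-gene clusters, and 32.5% and 30.9% in genes of the same lengths. Of the latter, the first lies just inside and the second just above the PSM interval. Aminoacyl-tRNA synthetase genes had 26.6% and 25.8%, translation initiation factor genes 36.4% and 32.5%, and ribosomal protein genes 38.1% and 37.4%. The last 25% held 19.9% of F125A and 19.6% of WT clusters, beside 16.1% and 16.3% over all single-gene clusters. PSMA1, PSMA6 and PSMG2 had no cluster of either list in their first 25%, nor had several PSM genes with few clusters. Neighbouring clusters of one PSM gene were separated by a median of 969 nt in the F125A list and 590 nt in the WT list, against 1033 and 637 nt over all genes. In 20 of 367 F125A and 37 of 683 WT neighbours, one cluster began where the other ended or before. These are 5.45% and 5.42%, beside 5.58% and 6.03% over all genes.

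Other genes of the proteasome pathway had a median ratio slightly below that of all genes, with an interval that included both 0 and that median. Of 20 such genes, 19 had a cluster and 14 had a ratio, 6 above 0 and 8 below. The median of the 14 was -0.08 (interval of the median -0.45 to 0.37), beside 0.04 over all genes. After subtraction of the value for similar gene length, it was -0.24, with 3 genes above 0 and 11 below. UBE3C, a ubiquitin ligase bound to the proteasome, had 133 F125A and 200 WT clusters (0.38, interval 0.05 to 0.70), the only interval without 0 among the 14, where 4.37% of all genes had such an interval on the F125A side and 5.85% on the WT side. The deubiquitinases of the cap had 52 and 79 (UCHL5, 0.37, interval -0.17 to 0.88) and 32 and 80 (USP14, -0.33, -0.999 to 0.25). TXNL1, a thioredoxin-like protein of the cap, had 10 and 35 (-0.75, interval -2.02 to 0.20), the lowest of the 14. NFE2L1, the transcription factor that raises proteasome genes when the proteasome is inhibited, had 19 and 31 (0.28, -0.65 to 1.13), and POMP, a maturation factor of the core, 12 and 18 (0.42, -0.81 to 1.51). None of the 14 lay 2-fold or more in either direction, beside 4.50% of all genes.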

How the data were processed

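RNA protected from nuclease in FLAG-Rbfox1 complexes was sequenced. Per the labels' protocols, a linker was joined to the RNA, primers carried 4-nt molecular identifiers, and inserts of 20 to 80 nt were selected. The build was hg38 and the tools cutadapt and STAR, per the submitters' processing notes. For versions, cluster caller, threshold, pooling and annotation, nothing is given in the sources used here. As deposited, the lists give chromosome, start, end, gene, region and strand, with no count or score; starts are 0-based there and printed here 1-based.

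Samples were grouped by the genotype in their titles. Repeated rows were dropped (4851 in the F125A list, 6 of them in PSM genes; 7029 and 14 in the WT list). All 42 names matched a protein-coding symbol of RefSeq GRCh38.p14, and every PSM cluster lay inside its gene's bounds. Genes of similar length share 1 of 20 bins of length; shares in genes of the same lengths are means over bins, weighted by PSM clusters. Intervals are Clopper-Pearson, and those of medians come from order statistics. Clusters were counted as independent, although those of one transcript share a source. Scripts used Python 3.11.15, pandas 2.3.3 and scipy 1.17.1, and the ratio and overlap were tested on simulated data. Unused per-sample columns numbered 0.

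The members and lists were chosen with earlier results of these data known. The named-gene rule covers every PSM gene, with ratios from 20 clusters, and a fixed list of 20 pathway genes. Alternatives covered merging, repeats, the stretch of 5433 rows identical in both lists (no PSM cluster), added count, minimum, centring, gene length, overlap rule, start distance and the non-subunit names.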

Additional observations from a re-analysis of the deposited data

How the results depend on the processing

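Of 62 summary values recomputed under the alternatives, 57 stayed within the interval of the reported value or within 1.5 times the reported count. Leaving out the identical stretch could not change cluster lengths or start shares, as it holds no PSM cluster. Relative to genes of similar length the median log2 ratio of the PSM genes was -0.16 in place of 0.20, and 0 in place of 1 gene lay 2-fold or more toward F125A. With clusters closer than 50 nt merged that count stayed at 1, but the gene was PSMC6 (1.04) in place of PSMD3 (0.92). Under the other 7 settings the median ranged between 0.16 and 0.31. Merging clusters closer than 50 nt raised the median length to 74 nt in the F125A list, and by construction left 16 PSM genes with at least 20 clusters. Within 2 kb in place of 1 kb of the start lay 12.01% of F125A and 11.2% of WT clusters, as a wider window must hold more. The ratios of single PSM genes stayed inside their intervals, which are wide, in all 136 recomputed values. Part of this was fixed in advance. A lower minimum leaves the ratio of a gene as it was. Centring on the median gene, or leaving out the identical stretch, shifts all ratios by the same amount. The signs of single-gene ratios were less stable. With gene length taken into account, 5 genes lay above 0 and 15 below, in place of 13 and 7. Among those that changed sign were PSMC4 (0.52 to -0.20) and PSMG1 (0.48 to -0.24). Merging moved PSMC2 from -0.29 to 0.11. With 5 added to each count, PSMA2 and PSMD4 each moved from -0.14 to 0.17. No paired analysis was possible because each group has 1 list for all its libraries, and for the same reason no library could be left out. Low cluster numbers limit the ratios: even PSMD14, with 37 F125A and 77 WT clusters, has an interval over 1 log2 unit wide.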
